A study of Rattus norvegicus with 12 samples.

Results

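The genes described here are 10 transcriptional regulators of mitochondrial biogenesis, chosen by symbol from the 32883 genes of the deposited count table: Ppargc1a, Ppargc1b, Pprc1, Esrra, Esrrb, Esrrg, Nrf1, Gabpa, Tfam and Ppara. Each symbol matched 1 gene, and all 10 passed the filter on low counts. They were read in 12 poly(A) RNA libraries of primary ventricular cardiomyocytes from newborn rats, harvested 2 days after delivery of an adenovirus. The control virus carried LacZ, a bacterial gene, and the other viruses carried human KAT6A, a histone acetyltransferase, in its unchanged form (WT), as the K815R mutant that resists acetylation, or as the K815Q mutant that stands in for acetylation. Each of the 4 groups had 3 libraries, and all cells had received a virus. The labels do not say whether replicates came from separate cultures or litters, so the p-values measure the spread between these libraries, which may be technical. The study's title sets the question: whether acetylation of KAT6A bears on growth and mitochondrial metabolism through AMPK.

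Gene counts per library ranged from 19102048 to 25451686, and levels are given as CPM, which are counts scaled by TMM to a common library total. Kat6a checks the labels. Its mean was 48.1 ± 4.74 CPM for LacZ, 93.0 ± 12.3 for WT, 108 ± 11.6 for K815R and 46.3 ± 3.35 for the libraries labelled K815Q (SD, n = 3 each), so the delivered gene was not seen to rise there and these libraries are named by label throughout. The counts do not separate human KAT6A from the rat gene. Prkaa2, the AMPK alpha 2 subunit, had means of 60.9 ± 10.1, 518 ± 102, 87.2 ± 8.70 and 1167 ± 55.4 CPM in the same order (SD, n = 3 each). Cardiomyocyte markers (10 genes) summed to between 41940 and 47359 CPM and fibroblast markers (9 genes) to between 10975 and 12819, so RNA of both cell types was present. In such bulk RNA, fewer cells of a type and less RNA per cell cannot be told apart.

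PGC-1 proteins are coactivators: they do not bind DNA themselves but dock on nuclear receptors and other factors and recruit the machinery that opens chromatin and starts transcription. In heart muscle they act on the estrogen-related receptors (ERR), on PPAR alpha and on the nuclear respiratory factors NRF1 and GABP, which together drive genes for oxidative phosphorylation and fatty acid oxidation. TFAM closes the loop, since it is encoded in the nucleus, is a known target of NRF1 and GABP, packages mitochondrial DNA and takes part in its transcription.

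The promoters of these genes were searched for letters of known sites. RefSeq promoter entries of the rat assembly GRCr8 were matched for all 10 genes, 13 entries in all, and the 250 bases before each start were searched on both strands. The submitters' processing notes name another build, Rnor_6.0, so these coordinates belong to the promoter entries alone. The 5 genes with a match are shown because their windows hold letters known from sites of the cAMP-responsive factor CREB, of GABP or of NRF1, and GABP and NRF1 are themselves encoded by members. Capitals mark the match, and each sequence is written 5′ to 3′ along the gene.
Ppargc1a, chr14:63634101-63634160, plus strand: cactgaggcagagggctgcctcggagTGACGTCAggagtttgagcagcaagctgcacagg
Tfam, chr20:17355291-17355349, plus strand: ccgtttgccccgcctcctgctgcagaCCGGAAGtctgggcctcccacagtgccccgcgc
Gabpa, chr11:37375153-37375211, plus strand: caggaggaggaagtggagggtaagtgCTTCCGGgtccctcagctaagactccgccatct
Esrra, chr1:213543387-213543446, minus strand: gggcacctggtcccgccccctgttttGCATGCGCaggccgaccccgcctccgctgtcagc
Ppara, chr7:118712483-118712542, plus strand: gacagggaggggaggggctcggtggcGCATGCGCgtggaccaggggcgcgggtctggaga

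The Ppargc1a stretch holds the cAMP response element TGACGTCA, at position -181 from the start, and 1.59% of 33469 promoter entries hold it in the same window. Tfam and Gabpa hold the GABP core CCGGAAG, Gabpa as its reverse complement; 7.27% of all entries do. Esrra and Ppara hold GCATGCGC, a core of the NRF1 site, found in 2.2% of all entries; in Ppara it occurs on both strands, and the overlapping copies form a palindrome. The ERR core AAGGTCA and a loose pattern for MEF2 (CTA, any 4 letters, TAG) were not among the letters of any member's window. Of all entries, 3.99% and 3.41% hold them. Other forms of the MEF2 site were not searched, so neither value is about MEF2 sites as such. These shares count single promoter entries, whereas a member counted as a match through any of its entries (13 for the 10 genes), so the 2 are not alike. A match is a description of letters and not evidence of a bound site.

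None of the 10 regulators was called in any comparison of groups. A gene was called at an edgeR-adjusted p under 0.05, which is the p of the quasi-likelihood test in edgeR after Benjamini-Hochberg adjustment over 14063 genes. Over 6 comparisons of 10 genes the smallest was 0.270, and when all 4 groups were tested together it was 0.319. The share of all tested genes called was 5.34% for WT against LacZ, 2.47% for K815R against LacZ and 7.85% for the libraries labelled K815Q against LacZ. It was 2.20% for K815R against WT, 1.07% for labelled K815Q against WT, 0.363% for K815R against labelled K815Q and 8.13% for all groups together, so 0 of 10 lies near the background in each. DESeq2 called 0 of 10 as well.

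At an unadjusted p under 0.05, edgeR had 3 of the 60 results, Pprc1 and Ppara in labelled K815Q against WT and Esrrb in K815R against labelled K815Q, and DESeq2 had Pprc1 alone. The share of all genes under that limit was 14.4% and 11.4% in these comparisons. It was 19.1%, 13.8% and 24.2% for WT, K815R and labelled K815Q against LacZ, 13.8% for K815R against WT and 24.6% for all groups together, with 0 of 10 regulators in each. By mean level WT ranked highest for 6 genes: Ppargc1a, Ppargc1b, Pprc1, Esrra, Esrrg and Ppara. Labelled K815Q ranked lowest for 5, Ppargc1b, Pprc1, Esrrb, Esrrg and Ppara. No neighbours in any of the 10 orders differed by the test.

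**Figure D1:**
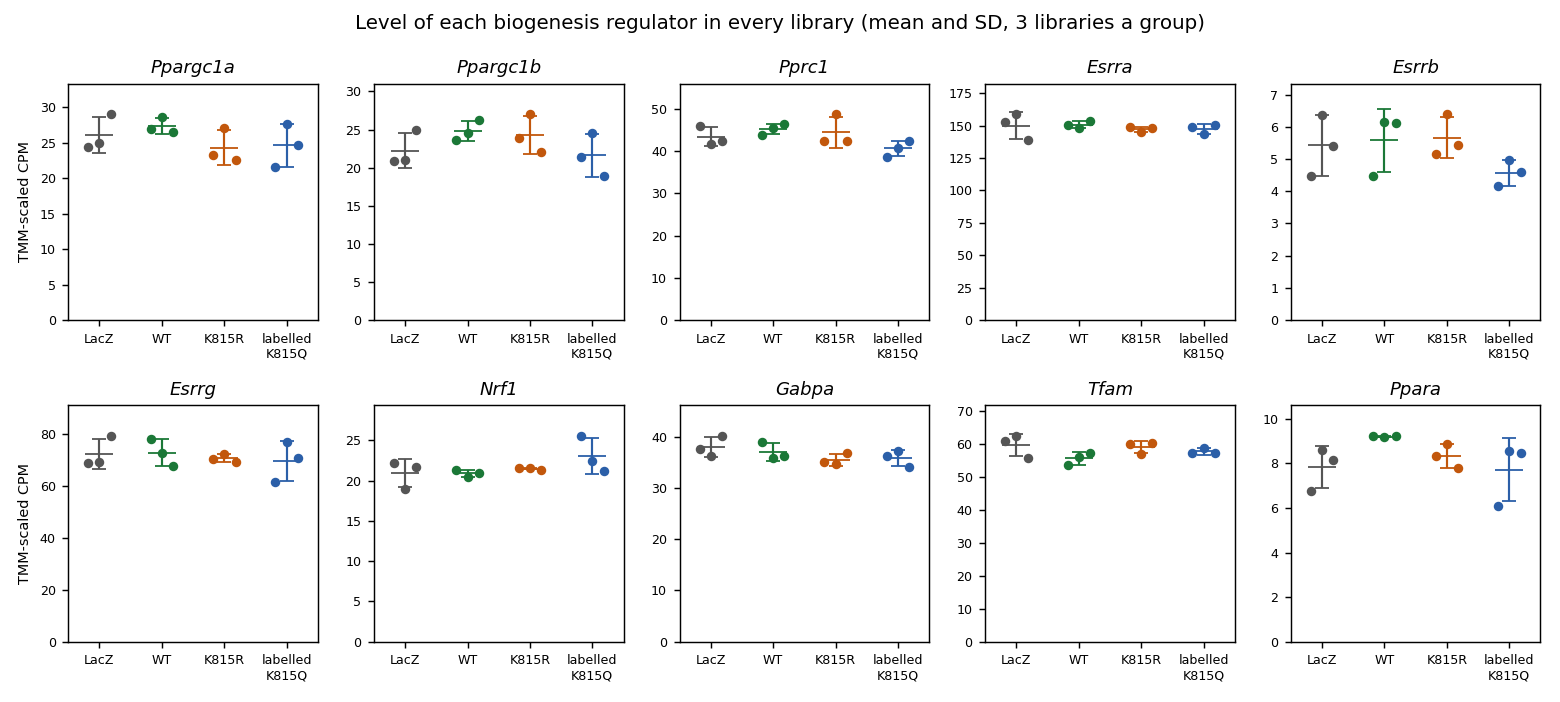
Level of each of the 10 regulators in TMM-scaled CPM (vertical axis from 0) in every library, grouped as LacZ, WT, K815R and labelled K815Q; points are libraries in replicate order, bars the mean and SD of 3. The groups overlap for most genes, while the 3 WT libraries of Ppara, at 9.19 to 9.22 CPM, lie above the 3 LacZ libraries.

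The 3 coactivators come first. Ppargc1a (ENSRNOG00000004473) encodes PGC-1 alpha, the member induced by fasting, cold and exercise through cAMP and AMPK signalling. In replicate order its LacZ libraries stood at 24.4, 25.0 and 29.0 CPM, with the others at 27.0, 28.7 and 26.5 in WT, at 23.3, 27.1 and 22.5 in K815R and at 21.6, 27.7 and 24.7 in the libraries labelled K815Q. All groups overlap, and the highest library of all was a LacZ one. By mean level the order was WT, LacZ, labelled K815Q and K815R. K815R minus WT, as a log2 fold change, was -0.17 (SE 0.0901, 95% interval -0.36 to 0.02, edgeR-adjusted p 0.437) and K815R minus LacZ was -0.10 (interval -0.29 to 0.08). Labelled K815Q minus WT was -0.15 (interval -0.34 to 0.04). These values moved with single libraries in both directions. K815R minus WT was -0.26 without K815R replicate 2 and -0.11 without K815R replicate 3. K815R minus LacZ was -0.19 without K815R replicate 2, -0.05 without K815R replicate 3 and -0.02 without LacZ replicate 3. Labelled K815Q minus WT was -0.24 without K815Q replicate 2 and -0.06 without K815Q replicate 1. Over the 6 comparisons the bound of the 95% interval farthest from 0 corresponds to a 1.28-fold difference. Transcripts of this gene from different start sites are summed in 1 count, so a shift among them cannot be seen here.

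Ppargc1b (ENSRNOG00000017503) encodes PGC-1 beta, which is held to sustain basal mitochondrial function. It stood at 20.8, 21.0 and 24.9 CPM in LacZ, at 23.6, 24.6 and 26.2 in WT, at 23.9, 27.0 and 22.1 in K815R and at 21.4, 24.6 and 19.0 in the libraries labelled K815Q. The ranges overlap in each pair of groups, with 1 labelled K815Q library lowest and 1 K815R library highest. Against LacZ the log2 fold change was 0.16 in WT and 0.13 in K815R, with intervals of -0.04 to 0.35 and -0.07 to 0.33. The labelled K815Q libraries lay below WT by -0.20 (SE 0.0966, interval -0.40 to 0.01, edgeR-adjusted p 0.362), and K815R exceeded them by 0.17 (interval -0.03 to 0.37). Its farthest interval bound was 1.32-fold. Each of these values moved by over 1.5 times without some library. WT minus LacZ was 0.24 without LacZ replicate 3, and K815R minus LacZ ran from 0.04 without K815R replicate 2 to 0.22 without LacZ replicate 3, with 0.08 without LacZ replicate 1 and 0.20 without K815R replicate 3. Labelled K815Q minus WT was -0.30 without K815Q replicate 2 and -0.11 without K815Q replicate 3. K815R minus labelled K815Q was 0.27 and 0.08 without those, and 0.08 without K815R replicate 2.

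Pprc1 (ENSRNOG00000018561) encodes PRC, the family member that responds to serum and growth signals. Its LacZ libraries stood at 46.0, 41.8 and 42.4 CPM, WT at 43.9, 45.5 and 46.4, K815R at 42.4, 48.7 and 42.4 and labelled K815Q at 38.8, 40.8 and 42.5. The 3 labelled K815Q libraries all lie below the 3 WT libraries. That difference was -0.15 (SE 0.0651, interval -0.29 to -0.02), with an unadjusted p of 0.0264 and an edgeR-adjusted p of 0.270, so it was not called. In this comparison 19.3% of all tested genes had libraries that do not overlap, and 2 of the 10 regulators did, Pprc1 and Ppara. K815R exceeded labelled K815Q by 0.13 (interval -0.00 to 0.27), and by 0.06 without K815R replicate 2. Its farthest interval bound was 1.22-fold.

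Among the receptors, Esrra (ENSRNOG00000021139) encodes ERR alpha, through which PGC-1 alpha induces genes of the respiratory chain. It had the narrowest spread of the 10, with 153, 159 and 139 CPM in LacZ, 151, 148 and 153 in WT, 149, 145 and 148 in K815R, and with labelled K815Q at 149, 143 and 151. The lowest and the highest library were both LacZ, 1.14-fold apart. Log2 fold changes ran from -0.03 to 0.01, and the farthest interval bound over the 6 comparisons was 1.10-fold.

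Esrrg (ENSRNOG00000002593) encodes ERR gamma, which in newborn heart is tied to the switch to oxidative metabolism. It stood at 68.7, 69.1 and 79.0 CPM in LacZ, at 78.0, 72.5 and 67.5 in WT, at 70.3, 72.3 and 69.1 in K815R and at 61.4, 76.7 and 70.7 in labelled K815Q. All groups overlap, and the farthest interval bound was 1.16-fold. Esrrb (ENSRNOG00000010259) encodes ERR beta, better known from stem cells and the inner ear, and had the lowest counts of the set, 80 to 162 reads per library. Its libraries stood at 4.48, 6.37 and 5.41 CPM in LacZ, 4.46, 6.15 and 6.13 in WT, 5.15, 6.38 and 5.45 in K815R, with labelled K815Q at 4.16, 4.97 and 4.58. The K815R libraries all lie above the labelled K815Q libraries. K815R exceeded them by 0.31 (SE 0.150, interval 0.00 to 0.62), which had an unadjusted p of 0.0472 and an edgeR-adjusted p of 0.436. In this comparison 16.0% of all tested genes had libraries that do not overlap, against 1 of 10 regulators. Labelled K815Q minus LacZ was -0.24 (interval -0.55 to 0.07) and minus WT -0.29 (interval -0.60 to 0.03). The former ran from -0.36 without LacZ replicate 1 to -0.11 without LacZ replicate 2, the latter from -0.42 without WT replicate 1 to -0.21 without WT replicate 2 or 3. Its farthest interval bound was 1.54-fold, the widest of the set.

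Ppara (ENSRNOG00000021463) encodes PPAR alpha, the fatty acid sensor that drives genes of fatty acid oxidation. It stood at 6.78, 8.60 and 8.15 CPM in LacZ and at 9.22, 9.19 and 9.21 in WT, so WT lay above LacZ without overlap. K815R stood at 8.34, 8.86 and 7.81 CPM and labelled K815Q at 6.08, 8.58 and 8.49. WT also lay above both mutant groups without overlap. WT minus LacZ was 0.23 (SE 0.118, interval -0.01 to 0.48, edgeR-adjusted p 0.292), and 24.6% of all tested genes did not overlap there, against 1 of 10 regulators. Without LacZ replicate 1 it was 0.14 and without LacZ replicate 2 it was 0.30. K815R minus WT was -0.14 (interval -0.39 to 0.10); in that comparison 19.0% of all genes and 2 of 10 regulators, Ppara and Nrf1, did not overlap. Without K815R replicate 3 it was -0.09. Labelled K815Q minus WT was -0.25 (interval -0.51 to -0.00) with an unadjusted p of 0.0474 and an edgeR-adjusted p of 0.342. Without K815Q replicate 1 it was -0.11 and without K815Q replicate 2 it was -0.34. Ppara rests on 117 to 225 reads per library, and its farthest interval bound was 1.42-fold.

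The nuclear respiratory factors follow. Nrf1 (ENSRNOG00000008752) encodes NRF1, a direct activator of respiratory chain genes and of Tfam, and is not the antioxidant factor Nfe2l1 that shares the abbreviation. It stood at 22.2, 19.0 and 21.7 CPM in LacZ, at 21.3, 20.4 and 20.9 in WT, at 21.6, 21.5 and 21.4 in K815R and at 25.5, 22.5 and 21.1 in labelled K815Q. The K815R libraries lie above the WT libraries by a narrow margin: the log2 fold change was 0.04 (interval -0.12 to 0.20). Labelled K815Q minus LacZ was 0.14 (SE 0.0770, interval -0.02 to 0.30, edgeR-adjusted p 0.283). Without K815Q replicate 1 it was 0.06, without LacZ replicate 2 it was 0.07 and without K815Q replicate 3 it was 0.19. Its farthest interval bound over the 6 comparisons was 1.23-fold.

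Gabpa (ENSRNOG00000053205) encodes the DNA-binding subunit of GABP, also called NRF-2. Its libraries stood at 37.6, 36.1 and 40.1 CPM in LacZ, 39.0, 35.8 and 36.3 in WT, 35.0, 34.7 and 36.9 in K815R, with labelled K815Q at 36.1, 37.1 and 34.1. Every pair of groups overlaps, and log2 fold changes ran from -0.10 to -0.01 over the 6 comparisons. Tfam (ENSRNOG00000000613), whose printed promoter stretch holds a GABP core, stood at 60.9, 62.3 and 55.8 CPM in LacZ, 53.4, 55.9 and 57.2 in WT, 59.9, 56.8 and 60.3 in K815R, with labelled K815Q at 57.0, 58.8 and 57.1. Groups overlap here too. WT minus LacZ was -0.10 (SE 0.0549, interval -0.22 to 0.01, edgeR-adjusted p 0.321). The farthest interval bounds were 1.17-fold for Gabpa and 1.16-fold for Tfam.

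**Figure D2:**
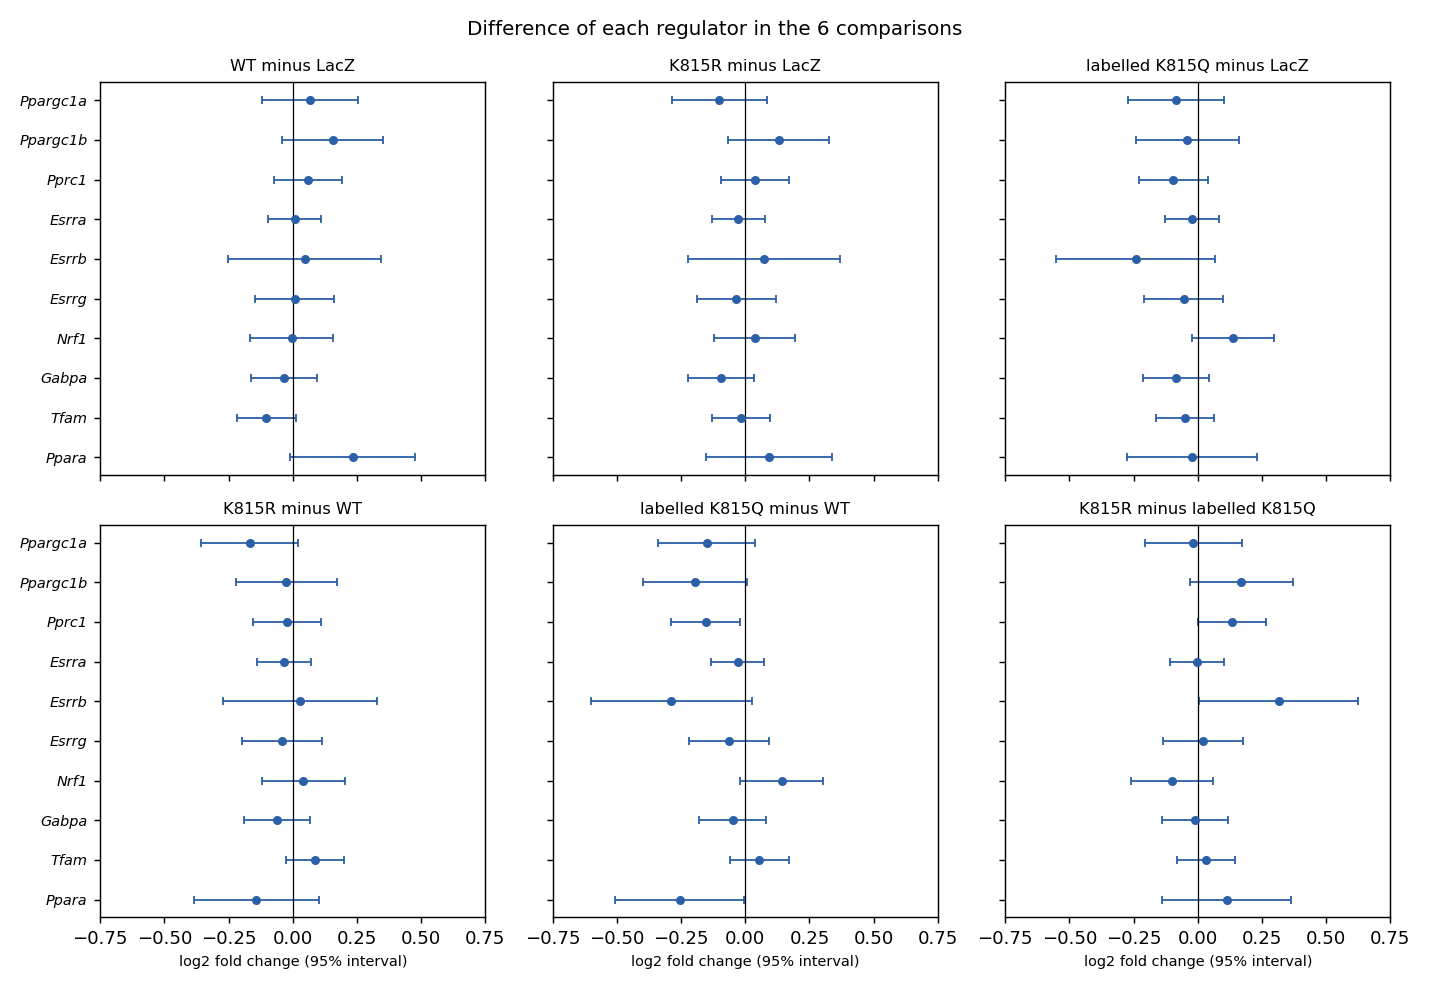
Log2 fold change of each regulator (horizontal axis) in the 6 comparisons, 1 panel each; points are estimates of edgeR's quasi-likelihood fit and bars their 95% intervals, unadjusted. Esrra has the shortest bars and Esrrb the longest, and the few bars that miss 0 belong to Pprc1 and Ppara in labelled K815Q minus WT and Esrrb in K815R minus labelled K815Q.

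The 10 regulators had a median log2 fold change against LacZ of 0.03 in WT, 0.01 in K815R and -0.05 in labelled K815Q, beside 0.01, 0.00 and 0.01 over all tested genes. These 3 comparisons share the LacZ libraries. Against WT it was -0.03 in K815R and -0.11 in labelled K815Q, and K815R minus labelled K815Q gave 0.03; over all tested genes the median was -0.00 in each of these. Above LacZ were 7, 5 and 1 of the 10 genes, beside 52.4%, 51.2% and 51.7% of all tested genes. Above WT were 3 in K815R and 2 in labelled K815Q, beside 49.0% and 48.8%, and K815R exceeded labelled K815Q in 6, beside 49.8%. In K815R against LacZ and labelled K815Q against LacZ, 0 of 10 regulators had libraries that do not overlap, beside 18.7% and 28.4% of all genes. Without K815Q replicate 1 the medians were -0.03 for labelled K815Q against LacZ, -0.06 against WT and -0.00 for K815R minus labelled K815Q. Leaving out each library in turn gave -0.11 to -0.02, -0.15 to -0.06 and -0.00 to 0.09 for these 3 comparisons. It gave 0.01 to 0.04 for WT and -0.02 to 0.03 for K815R against LacZ, and -0.07 to -0.00 for K815R against WT.

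K815Q replicate 1 stood at the edge of the set more often than any other library. It was the lowest of all 12 for 5 genes, Ppargc1a, Pprc1, Esrrb, Esrrg and Ppara, and the highest for Nrf1. Among all tested genes it was the lowest for 13.9% and the highest for 12.0%, also the largest shares of any library. LacZ replicate 3 came next, at the edge for 4 of the 10 genes and for 23.6% of all genes. Some differences of labelled K815Q from LacZ that lay near 0 changed sign without K815Q replicate 1, and some without another library. Esrra, at -0.02, went to 0.02 without LacZ replicate 2. Esrrg, at -0.05, went to 0.03 without K815Q replicate 1 and to 0.01 without LacZ replicate 3. Ppara, at -0.02, went to 0.12 without K815Q replicate 1, to 0.05 without LacZ replicate 2 and to 0.01 without LacZ replicate 3. Ppargc1a, at -0.08, went to 0.003 without K815Q replicate 1. Without LacZ replicate 3 it kept its sign but was near 0 (-0.002). Ppargc1b, at -0.04, went to 0.05 without either K815Q replicate 3 or LacZ replicate 3.

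**Figure D3:**
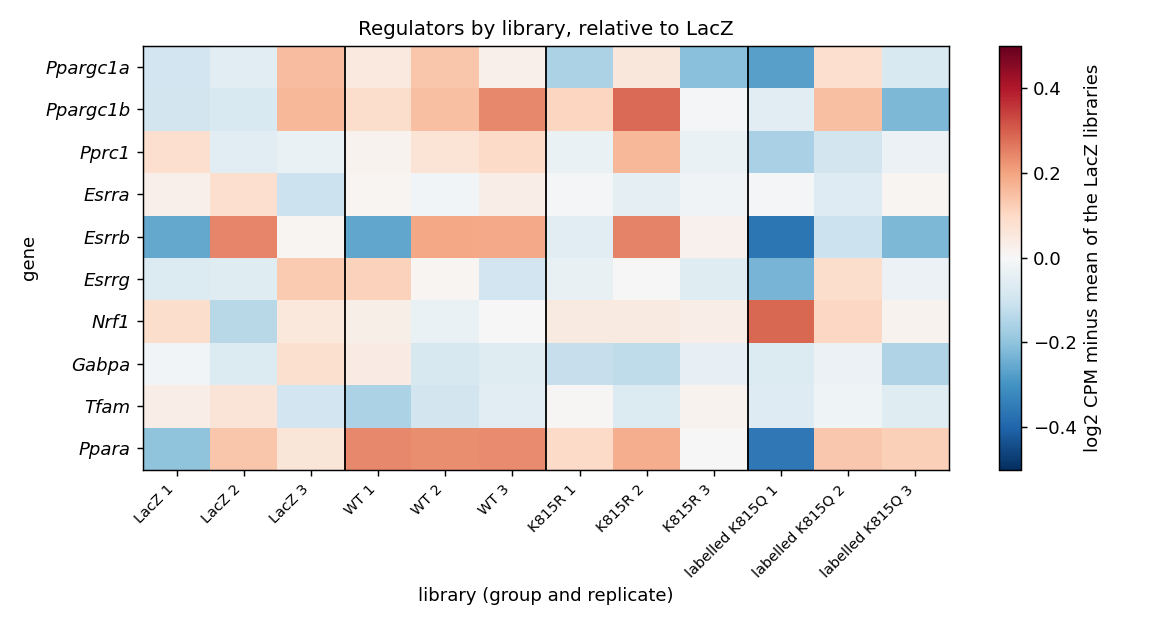
Log2 CPM of each regulator (rows) in each library (columns) minus the mean of the 3 LacZ libraries, on a color scale from -0.5 (blue) to 0.5 (red). The column of K815Q replicate 1 holds the lowest value for 5 genes and the highest for Nrf1.

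Some members followed each other from library to library. Over the 12 libraries log2 CPM of Ppargc1a correlated with that of Esrrg (Pearson r = 0.79), Ppara (0.70) and Ppargc1b (0.60). Taken as deviations from the group means, the same pairs gave 0.81, 0.73 and 0.70. Other members ran opposite to Ppargc1a: Tfam (-0.49 over libraries, -0.45 within groups), Nrf1 (-0.41 and -0.29) and Esrra (-0.38 and -0.68). Ppargc1b also ran opposite to Esrra (-0.47 and -0.68), and Nrf1 ran opposite to Ppara (-0.74 and -0.81). These values describe 12 points that share libraries and depth. K815Q replicate 1 was the lowest library for Ppargc1a, Esrrg and Ppara and the highest for Nrf1, and correlations without it were not computed. Of 10260 genes of at least 5 CPM, the 3 whose log2 CPM was most like Ppargc1a were Nhsl1 (0.93), Lama2 (0.93) and Ccdc141 (0.92).

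The partners and targets of these regulators were read from 6 lists, with 144 genes named, 139 of them in the table and 135 tested. Of the 135, 4 were called in WT against LacZ, 1 in K815R and 11 in labelled K815Q (2.96%, 0.741% and 8.15%), beside the 5.34%, 2.47% and 7.85% of all genes. K815R against WT gave 2 calls, labelled K815Q gave 1 against WT and 1 against K815R (1.48%, 0.741% and 0.741%), beside 2.20%, 1.07% and 0.363% of all genes. In all, 13 genes were called at least once. The share of all genes called at least once was not computed, so this count has no background beside it. Genes above LacZ in WT, K815R and labelled K815Q, called or not, numbered 13, 6 and 11 of 24 partner factors, 8, 3 and 8 of 19 coregulators, and 15, 16 and 14 of 23 genes of mitochondrial DNA. They were 16, 15 and 18 of 24 import genes, 20, 16 and 17 of 24 ERR and NRF targets and 13, 10 and 13 of 21 PPAR alpha targets, beside 52.4%, 51.2% and 51.7% of all tested genes. The counts of called genes moved with single libraries. In labelled K815Q against LacZ the count was 2 without LacZ replicate 2 or K815Q replicate 1, 4 without LacZ replicate 3 and 5 without K815Q replicate 3. In WT against LacZ it was 0 without LacZ replicate 2, 2 without LacZ replicate 1 and 1 without WT replicate 1 or 2. In K815R against LacZ it was 0 without LacZ replicate 1 or K815R replicate 2 or 3, and 2 without LacZ replicate 3. Between the forms of KAT6A the counts ran from 0 to 2: in K815R against WT 1 without WT replicate 1 or 3 or K815R replicate 2 or 3 and 0 without WT replicate 2, in labelled K815Q against WT 0 without any WT replicate or K815Q replicate 2 or 3. In K815R against labelled K815Q it was 0 without K815R replicate 2 or K815Q replicate 1 or 3 and 2 without K815R replicate 1.

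**Figure D4:**
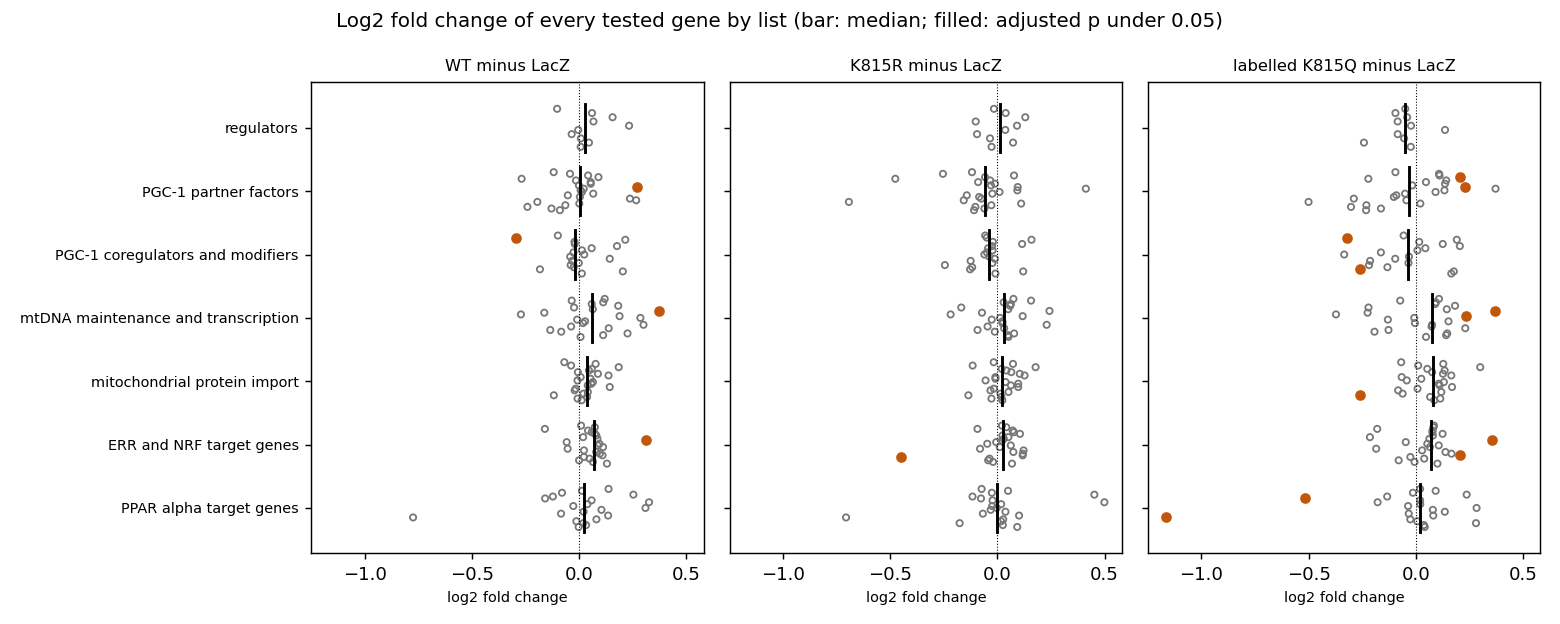
Log2 fold change against LacZ (horizontal axis) of every tested gene on each list (rows), 1 panel each for WT, K815R and labelled K815Q; circles are genes, filled where the adjusted p is under 0.05, and bars are list medians. No regulator is filled, and all list medians lie between -0.06 and 0.08.

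Among 24 partner factors, Perm1 and Tfeb were called, both upward. Perm1 encodes a muscle regulator induced by PGC-1 and ERR that feeds back on both. It stood at 25.5, 28.6 and 28.3 CPM in LacZ and at 34.5, 35.2 and 29.7 in WT, with K815R at 29.2 to 29.4 and labelled K815Q at 31.4 to 33.6. The other groups all lie above LacZ. Of all tested genes, 24.6%, 18.7% and 28.4% did not overlap LacZ, in either direction, in WT, K815R and labelled K815Q. Against LacZ Perm1 rose by 0.27 in WT (SE 0.0700, edgeR-adjusted p 0.0240) and by 0.23 in labelled K815Q (SE 0.0703, edgeR-adjusted p 0.0476), while K815R was not called. The WT call was lost without LacZ replicate 1 or 2 or WT replicate 1 or 2 (0.22 to 0.30). The labelled K815Q call was lost whichever of the 6 libraries was left out (0.18 to 0.26), under RLE scaling, with DESeq2 and when only the 6 libraries were fitted. Tfeb, the driver of lysosomal genes, rose by 0.21 in labelled K815Q (edgeR-adjusted p 0.0399), a call lost without LacZ replicate 2 (0.15), LacZ replicate 3 (0.23), K815Q replicate 1 or 2 (0.19 each), with DESeq2 and when only the 6 libraries were fitted. The medians of the list were 0.00, -0.06 and -0.03 in WT, K815R and labelled K815Q against LacZ.

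Of 19 tested coregulators and modifying enzymes, 3 were called: Sik1 and Gsk3b below LacZ, and Mybbp1a in labelled K815Q below WT alone. Sik1, a kinase of the AMPK family that restrains cAMP signalling, had a LacZ mean of 57.8 ± 3.26 CPM and fell to 47.1 ± 2.47 with WT and 46.2 ± 3.53 with labelled K815Q (SD, n = 3). Its log2 fold changes were -0.29 and -0.32 (edgeR-adjusted p 0.0364 and 0.0191), and K815R stood at 55.8 ± 7.05 CPM (SD, n = 3), not called. The WT call was lost without LacZ replicate 1 or 2 or WT replicate 1 or 2 (-0.29 to -0.26), the other without LacZ replicate 2 or K815Q replicate 1 or 3 (-0.33 to -0.27). Gsk3b, a kinase that marks PGC-1 alpha for breakdown, was lower in labelled K815Q than in LacZ (-0.26, edgeR-adjusted p 0.0361). Without LacZ replicate 2 or 3 or K815Q replicate 1 or 3 it was not called (-0.27 to -0.19). Mybbp1a, a repressor that binds PGC-1 alpha, was lower in labelled K815Q than in WT (-0.24, edgeR-adjusted p 0.0283). Only the fit without K815Q replicate 1 kept the call among the 6 that left out a library (-0.28 to -0.21). Its means were 72.5 ± 1.18 CPM for LacZ, 80.0 ± 3.18 for WT, 71.8 ± 3.60 for K815R and 67.8 ± 3.13 for labelled K815Q (SD, n = 3). All WT libraries of Mybbp1a lie above LacZ, where 24.6% of all tested genes did not overlap, and labelled K815Q overlaps LacZ. Medians against LacZ were -0.02, -0.04 and -0.03.

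Genes that copy and transcribe mitochondrial DNA, the machinery TFAM works with, gave 2 calls among 23, both upward. Slc25a33, a mitochondrial carrier of pyrimidine nucleotides, stood at 10.6, 9.04 and 8.97 CPM in LacZ and at 12.3, 13.3 and 11.5 in WT. K815R stood at 11.0, 11.4 and 11.4 and labelled K815Q at 11.5, 11.5 and 14.0, so all 9 other libraries lie above LacZ. The shares of all tested genes that did not overlap LacZ were 24.6%, 18.7% and 28.4% in WT, K815R and labelled K815Q. Slc25a33 rose by 0.37 in WT (SE 0.0983, edgeR-adjusted p 0.0249) and by 0.37 in labelled K815Q (SE 0.0987, edgeR-adjusted p 0.0246), while K815R was not called. The first call was lost without LacZ replicate 2 or 3 or WT replicate 1 or 2 (0.32 to 0.38) and with DESeq2, and the second without LacZ replicate 2 or 3 or K815Q replicate 3 (0.27 to 0.34). Polrmt, the RNA polymerase of mitochondria, rose from 28.6 ± 1.71 to 33.6 ± 2.16 CPM in labelled K815Q (SD, n = 3; log2 fold change 0.23, edgeR-adjusted p 0.0465). Among the fits that left out a library only that without K815Q replicate 2 kept this call (0.19 to 0.28), and DESeq2 and a fit of the 6 libraries alone lost it. Medians of the list were 0.06, 0.03 and 0.08 against LacZ.

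Of 24 tested genes for protein import, 1 was called: Hspa9, the chaperone that pulls proteins into the matrix. It stood at 238, 257 and 259 CPM in LacZ and at 191, 216 and 222 in labelled K815Q, without overlap, with WT at 227 to 239 and K815R at 210 to 242. Of all tested genes, 28.4% did not overlap between labelled K815Q and LacZ. In labelled K815Q Hspa9 fell by 0.26 on the log2 scale (SE 0.0599, edgeR-adjusted p 0.00950), while the median of the list was 0.08. Without LacZ replicate 2 or K815Q replicate 1 the call was lost (-0.25 and -0.20).

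The 24 ERR and NRF target genes held the call least moved by leaving out libraries. Mb encodes myoglobin, the oxygen store of muscle. It stood at 968, 899 and 915 CPM in LacZ, at 1112, 1156 and 1187 in WT, at 1042, 818 and 965 in K815R and at 1214, 1113 and 1239 in labelled K815Q. WT and labelled K815Q lie above all LacZ and K815R libraries, and K815R overlaps LacZ. The shares of all tested genes without overlap were 24.6% and 28.4% for these 2 groups against LacZ, and 19.0% and 16.0% against K815R. Against LacZ, Mb rose by 0.31 in WT (SE 0.0683, edgeR-adjusted p 0.00810) and by 0.36 in labelled K815Q (SE 0.0683, edgeR-adjusted p 0.00267). The second call was kept whichever of the 6 libraries was left out (0.33 to 0.40), and the first was lost without LacZ replicate 2 (0.29). K815R lay below WT by -0.29 and below labelled K815Q by -0.34 (edgeR-adjusted p 0.0283 and 0.0305). The former was kept without K815R replicate 1 but in no other such fit (-0.37 to -0.20), and the latter was lost without K815R replicate 2 or 3 or K815Q replicate 1 or 3 (-0.35 to -0.24). Neither was called when only its own 6 libraries were fitted.

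Ckmt2, the creatine kinase of heart mitochondria, was the only gene of these lists called lower in K815R than in LacZ. It stood at 24.1, 21.0 and 21.7 CPM in LacZ, 20.4, 25.9 and 21.6 in WT, 18.7, 15.4 and 15.0 in K815R, with labelled K815Q at 21.5, 21.1 and 23.1. All K815R libraries lie below the other 9. Between K815R and LacZ, WT or labelled K815Q, 18.7%, 19.0% and 16.0% of all tested genes did not overlap. K815R minus LacZ was -0.45 (SE 0.0940, edgeR-adjusted p 0.00930) and K815R minus WT was -0.47 (SE 0.0952, edgeR-adjusted p 0.0107); against labelled K815Q it was not called. The calls were lost without K815R replicate 2 or 3, and without LacZ replicate 1 for the first and WT replicate 2 for the second (-0.43 to -0.36). Cox4i1, a subunit of cytochrome c oxidase, was higher in labelled K815Q than in LacZ by 0.21 (edgeR-adjusted p 0.0287), a call lost without LacZ replicate 2 or 3 or K815Q replicate 1 or 3 (0.16 to 0.23). The list's medians against LacZ were 0.07, 0.03 and 0.07.

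PPAR alpha targets gave 2 calls among 21, both downward in labelled K815Q against LacZ. Pdk4, the kinase that shuts off pyruvate dehydrogenase, stood at 6.78, 7.48 and 7.78 CPM in LacZ and at 3.38, 6.14 and 5.88 in labelled K815Q. Its log2 fold change was -0.52 (SE 0.147, edgeR-adjusted p 0.0349). The call was lost without LacZ replicate 2 or 3 (-0.50 and -0.47), without K815Q replicate 1 (-0.29) and when only the 6 libraries were fitted. Angptl4, a secreted inhibitor of lipoprotein lipase, lies under the 5 CPM set for naming genes and is given because it is the other call. Its LacZ libraries stood at 4.90, 9.44 and 3.97 CPM and the labelled K815Q libraries at 2.49, 2.79 and 2.81, a log2 fold change of -1.17 (edgeR-adjusted p 0.0291). Without LacZ replicate 2, the highest library, it was -0.71 and still called, but leaving out any labelled K815Q library lost the call (-1.20 to -1.11), as did fitting the 6 libraries alone. Ppara itself stood at -0.02 in that comparison, and the median of the list was 0.02.

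**Figure D5:**
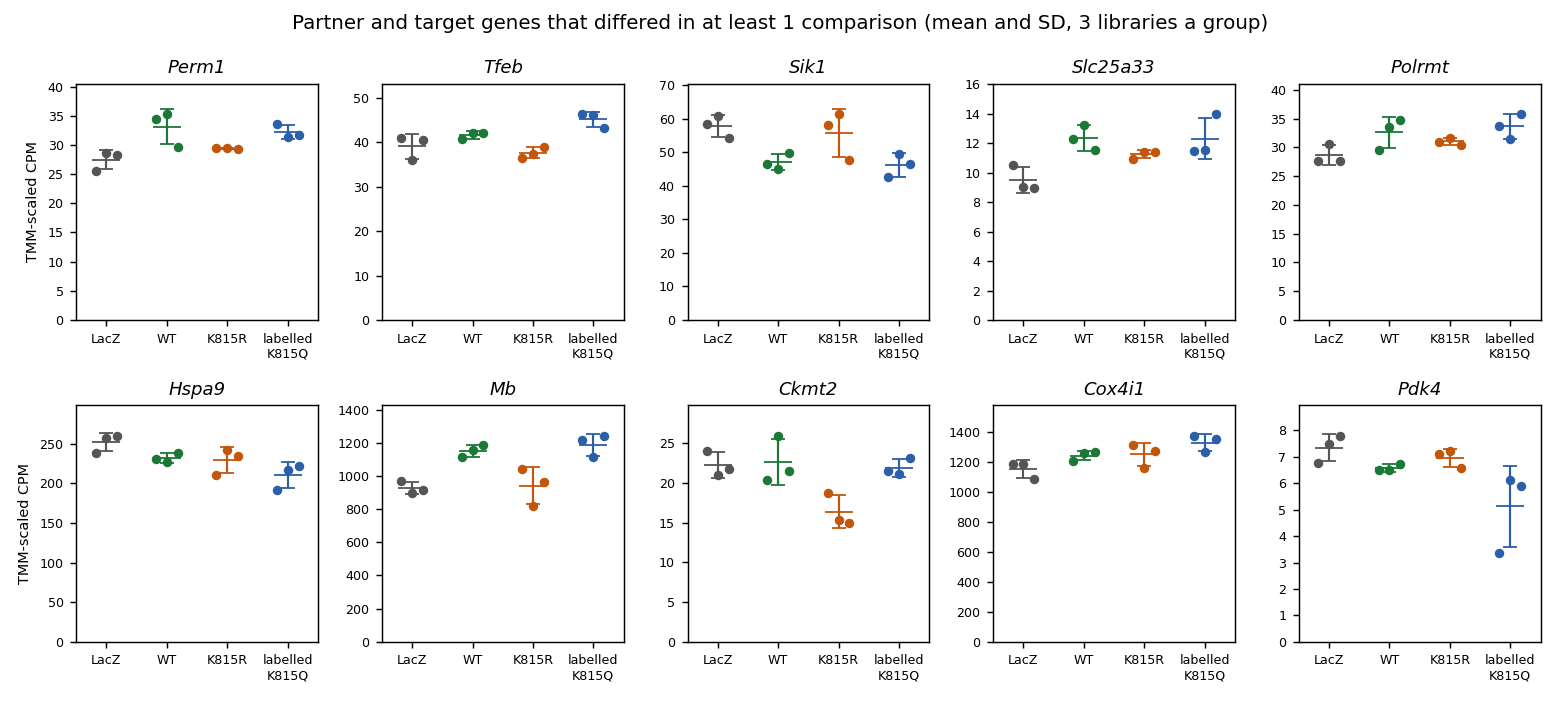
Level in TMM-scaled CPM (vertical axis from 0) of 10 of the 13 called partner and target genes in every library by group; points are libraries in replicate order, bars the mean and SD of 3. Mb is high in WT and labelled K815Q, and Ckmt2 is low in all 3 K815R libraries.

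Sums of cell type markers are given by their range over the 3 libraries of a group, with no test. Macrophage markers (8 genes) summed to 59.7 to 74.4 CPM in LacZ, 75.6 to 79.4 in WT, 74.1 to 79.3 in K815R and 78.2 to 84.6 in labelled K815Q. Fibroblast markers summed to 11829 to 12697 CPM in LacZ, 10975 to 12029 in WT, 11074 to 11521 in K815R and 11929 to 12819 in labelled K815Q, and cardiomyocyte markers to 41940 to 44213, 44461 to 45497, 46397 to 47359 and 43149 to 45099. Endothelial (7 genes, 156 to 227 CPM), smooth muscle and pericyte (7 genes, 4014 to 4580) and epicardial markers (5 genes, 33.1 to 40.5) were present too, and no marker was at 0 throughout a group. The ranges of LacZ lie below those of WT and labelled K815Q for macrophage markers and below those of WT and K815R for cardiomyocyte markers. They lie above those of K815R for fibroblast markers and for epicardial markers (36.1 to 40.5 against 33.1 to 34.5 CPM). For smooth muscle and endothelial markers they overlap all others. Single markers were called in both directions. Against LacZ, Lyz2 (macrophage) was higher in all 3 groups, Dpt and Postn (fibroblast) and Pln (cardiomyocyte) in WT and labelled K815Q, Mybpc3 (cardiomyocyte) in WT, and Tcf21 (fibroblast) and Pdgfrb (pericyte) in labelled K815Q. Lower than in LacZ were Pdgfra (fibroblast) in WT, Adgre1 (macrophage; under the 5 CPM set for naming genes) in labelled K815Q and Upk1b (epicardial) in K815R. Pdgfra had the smallest edgeR-adjusted p of these genes, 7.63e-05 for K815R above WT, with means of 69.2 ± 6.27 CPM for K815R, 47.6 ± 0.504 for WT and 61.2 ± 1.51 for LacZ (SD, n = 3), and labelled K815Q exceeded WT in it too. Between forms, K815R lay below WT in Dpt and Postn and exceeded WT and labelled K815Q in Myh7 (cardiomyocyte). The part of these cells in the differences of Perm1, Slc25a33, Mb and Ckmt2 was not tested.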

How the data were processed

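Raw read counts per gene were deposited by the authors in a single table of Ensembl rat genes with symbols. The submitters' processing notes name Trimmomatic 0.39, HISAT2 2.2.1, HTSeq 0.6.1, edgeR and the build Rnor_6.0; the annotation release and strand setting are not given in the sources used here, so overlapping and antisense genes are uncertain. The last 5 lines of the table name no gene and stayed out of library sizes and tests; reads in no feature were 11.7% to 12.9% of all, those aligned to several places 25.6% to 26.9%, those not aligned 2.69% to 3.06% and ambiguous ones 0.461% to 0.50%.

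From these counts, TMM scaling, filterByExpr (minimum count 10, total 15; 14063 genes kept) and edgeR 4.0.16 in R 4.3.3 were used: the quasi-likelihood test with robust dispersion, 1 model of 4 group means over 12 libraries, Benjamini-Hochberg adjustment over all tested genes, called at an adjusted p under 0.05. Log2 CPM used a prior count of 2. A count of 3 equals 0.118 to 0.156 CPM. Intervals are 95% from the same fit. Genes from the lists were named if called and of at least 5 CPM, up to 5 a list by adjusted p. Members and lists were chosen with earlier results of these data known. The fit was tested on simulated data. Alternatives were scaling by RLE or upper quartile, no filter or 10 counts in every library, a block for the replicate number, the 6 compared libraries alone, each library left out, and DESeq2 1.42.0. Those for partner and target genes were chosen after seeing the data. The kit marks strand, per the labels. Levels are not compared between genes, since lengths were not used here.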

Additional observations from a re-analysis of the deposited data

How the results depend on the processing

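The count of regulators called stayed at 0 in each comparison under RLE scaling, upper-quartile scaling, no filter, 10 counts in every library, DESeq2, the replicate block, a fit of only the 6 libraries compared, and without any 1 library (0 to 0). Over these settings the lowest adjusted p of a regulator was 0.152, in a fit that left out a library. Single values of the 10 genes changed sign in 5 of 420 values from fits that kept all libraries, where the largest was 0.00436 in size, and in 48 of 360 from fits that left out a library, up to 0.12. Of the differences of at least 0.1 in size, only that of Ppara in K815R minus labelled K815Q, 0.11, changed sign without a library: it was -0.0314 without K815Q replicate 1, and leaving out each in turn gave -0.03 to 0.20. Partner and target calls were fewer or more by over 1.5 times with no filter on low counts (18 in labelled K815Q against LacZ in place of 11, 3 in K815R against LacZ in place of 1, and 5, 2 and 6 in the 3 comparisons between forms in place of 2, 1 and 1; 18 in place of 8 when all groups were tested together). That count of 8 was 3 without K815R replicate 3, 4 without LacZ replicate 2 or WT replicate 1, 5 without WT replicate 2, K815R replicate 1 or K815Q replicate 1, and at most 10, without K815R replicate 2. DESeq2 gave 3 for K815R against labelled K815Q and 2 for labelled K815Q against WT. A fit of only the 6 libraries gave 7 for labelled K815Q against LacZ, 1 for K815R against WT and 2 for labelled K815Q against WT. The causes were not tested. Deviations of same-numbered libraries correlated between -0.13 and 0.12 in 18 pairs, and those of other libraries between -0.13 and 0.15 in 36. With 3 libraries a group, this does not settle whether the replicate numbers pair the libraries. A block for the replicate number raised the count of all genes called in each comparison. It was 1280 in place of 1104 for labelled K815Q against LacZ and 86 in place of 51 for K815R against labelled K815Q. With the replicate block, partner and target calls were 5, 1 and 12 for WT, K815R and labelled K815Q against LacZ and 2, 1 and 1 between forms, and it changed no call of a regulator. Depth limits Esrrb and Ppara most, the members with the fewest reads.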
